A study of Mus musculus with 18 samples.

Results

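The loci described here are stretches of the mouse genome that were assembled from liver RNA, were given a strand and carry no gene name. They were chosen from the deposited liver transcript table as the loci in which every model has an empty gene name and at least 1 model lies on the plus or minus strand, whatever their level. There were 838 such stranded unnamed loci among 26694 liver loci (3.14%), and they made up 29.5% of the 2842 unnamed loci. The other 2004 unnamed loci had no strand, and 23852 loci had a name. Every locus keeps the identifier of the deposited table (XLOC and a number), and its level is the sum of FPKM (fragments per kilobase of transcript, scaled to the total of a library) over its models.

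Livers came from male C57BL/6 mice aged 3 weeks, with 3 samples from offspring of dams gavaged daily with bisphenol A (BPA), an estrogenic plastics chemical, in corn oil at 5 mg/kg from 1 to 20 days after conception, and 3 from offspring of dams given corn oil alone. The offspring derived from 4 litters in the BPA arm and 3 litters in the vehicle arm, all kept on standard chow. Gonadal adipose tissue and hypothalamus were sampled in the same way, 18 samples in all. The 6 liver columns are called by the numbers in their headings, 03, 13, 15, 25, 28 and 42, which occur in no sample label, so the columns hold both treatments and no BPA comparison was possible.

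A locus without a name is one that the assembler built but that was not matched to a gene of the annotation it was given. RNA of this kind includes long noncoding RNA (lncRNA), antisense RNA, unannotated ends of known genes, and reads over processed pseudogenes, which are intronless copies of messenger RNA pasted back into the genome. Where reads carry no strand mark, an assembler takes the strand from the splice sites that reads cross, and a locus without such reads usually stays unstranded. Mature messenger RNA commonly ends shortly after a poly(A) signal, AATAAA or its variant ATTAAA.

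Some of the loci ran over named units of the GENCODE M21 or RefSeq annotation of the same build (mm10, GRCm38). The sequences below are those of the annotation at these places, not of reads or assembled models. The first pair compares 60 bases of the pseudogene Gm9794, which lies under XLOC_019789, with the coding sequence of Rpl23, a protein of the large ribosomal subunit. The alignment covered 423 bases with 1 difference (identity 99.8%), the substitution C253T, with the base of Rpl23 first and positions counted from 1 at the first base of its coding sequence. The capital marks that base in chr6:66875462-66875521 on the minus strand of mm10 and in bases 223 to 282 of the coding sequence, both taken from GENCODE M21.
Gm9794: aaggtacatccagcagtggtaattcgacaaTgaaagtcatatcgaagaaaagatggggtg
Rpl23: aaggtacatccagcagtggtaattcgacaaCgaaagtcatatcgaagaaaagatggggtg

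The second pair is Gm5424, under XLOC_001724, and Ass1, which encodes argininosuccinate synthase of the urea cycle. Over 1240 aligned bases there were 6 differences (identity 99.5%). The capital marks T399C, counted in the same way with the base of Ass1 first, in chr10:62071491-62071550 on the plus strand of mm10 and in bases 369 to 428 of the coding sequence.
Gm5424: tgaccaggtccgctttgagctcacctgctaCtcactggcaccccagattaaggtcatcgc
Ass1: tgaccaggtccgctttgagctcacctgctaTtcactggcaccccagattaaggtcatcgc

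The third is Rps6-ps4, under XLOC_013622, which had 0 differences from the transcript of Rps6, a protein of the small ribosomal subunit, over 750 bases. The stretch shown, chr2:75191418-75191477 on the minus strand of mm10, therefore stands for both.
Rps6-ps4: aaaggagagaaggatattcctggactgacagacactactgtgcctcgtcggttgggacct

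XLOC_005505 is shown as a locus with the features of a gene end and a gene start. It spans chr12:101968090-101975759 on the minus strand over Ndufb1, a subunit of respiratory complex I that RefSeq lists as protein-coding and GENCODE M21 as the noncoding Ndufb1-ps. The capitals in the 30 bases of chr12:101968102-101968131 (minus strand, mm10) mark a poly(A) signal that begins 37 bases before the 3′ end of the locus.
XLOC_005505 3′ end: ggagaAATAAAaacatttactatttaatta
The 150 bases before the RefSeq start of Ndufb1 (RefSeq, GRCm38; chr12:101975739-101975888, minus strand) hold 15 CpG dinucleotides, given in capitals, and no TATAAA. The 150 bases before the RefSeq start of Gm27216, an lncRNA gene under XLOC_025124 (chr9:83254510-83254659, minus strand), hold 1.
Ndufb1 promoter: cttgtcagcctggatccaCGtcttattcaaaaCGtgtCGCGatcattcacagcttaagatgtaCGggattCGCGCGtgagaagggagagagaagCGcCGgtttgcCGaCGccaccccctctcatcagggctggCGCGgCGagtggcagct
Gm27216 promoter: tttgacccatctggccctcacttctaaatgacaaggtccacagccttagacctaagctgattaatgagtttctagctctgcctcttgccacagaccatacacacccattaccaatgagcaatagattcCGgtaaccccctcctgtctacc

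The libraries carried liver RNA by the marker genes. The 8 hepatocyte markers summed to between 29623 and 70284 FPKM per library, although Alb was at 1112 FPKM in library 28 and Ahsg at 257 FPKM in library 25. The 4 adipocyte markers summed to 9.88 to 12.5 FPKM. Adipoq and Plin1 were listed at 0 in every library, while Fabp4 had 6.84 to 11.8 FPKM and Cidec 0.711 to 3.20 FPKM. The 3 neuron markers summed to 1.41 to 3.37 FPKM. Rbfox3 was at 0 in every library and Snap25 in 5, while Syt1 had 1.41 to 2.03 FPKM. The 3 red cell markers summed to 539 to 1315 FPKM. Eef1a1, a translation factor gene active in every cell, was listed at 0 in all 6 libraries, so a 0 in these tables can be a failed estimate and is given below only as listed. The depth of the libraries is unknown, since the tables hold FPKM only.

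The stranded unnamed loci were mostly short, simple and weakly expressed. There were 435 on the plus strand and 403 on the minus strand, 682 had 1 model and 156 had 2 or more. Their median span was 1900 bp (interquartile range 886 to 6189 bp), against 442 bp for unstranded unnamed loci, all 2004 of which had 1 model. The median of their mean levels was 0.36 FPKM (interquartile range 0.16 to 1.13 FPKM). A mean of at least 1 FPKM was reached by 225 loci (26.8%), at least 10 FPKM by 68 and at least 100 FPKM by 8. There were 417 loci (49.8%) above 0 in all 6 libraries, 74 above 0 in exactly 1 library and 6 listed at 0 in every library. Per library, between 582 (library 15) and 693 (library 25) of the 838 were above 0.

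The median stranded unnamed locus read higher than the median unstranded one in each liver library. The per-library medians were 0.264 to 0.353 FPKM for stranded loci, against 0.203 to 0.279 FPKM for unstranded loci. At least 1 FPKM was reached by 24.0 to 25.8% of stranded loci, against 18.0 to 19.7% of unstranded ones. The share above 0 did not follow the median. It was 69.5 to 82.7% of stranded loci, against 76.9 to 79.0% of unstranded ones, and lower for stranded loci in 4 of 6 libraries, as was the lower quartile. The difference of the medians was 0.35 ± 0.17 on the log2(FPKM + 0.1) scale (SD, n = 6 libraries), between 0.10 and 0.54, and positive in 6 of 6 libraries (exact sign-flip permutation test, two-sided, p = 0.031, the smallest p that 6 libraries allow). Over loci with 1 model it was 0.12 (exact permutation p = 0.1875). With the stranded loci classed by a pseudogene exon left out, but no unstranded ones, it was 0.16 (exact permutation p = 0.0625). The libraries are 6 samples of mixed treatment, and p-values measure the spread between them. The stranded and unstranded sets also differ by construction. Where reads carry no strand mark, a strand usually needs reads across splice sites, which can itself select for level. All 2004 unstranded loci had 1 model, while some stranded loci sum over more. With the highest model of a locus the difference was 0.285 (exact permutation p = 0.031). The part of the selection was not tested, so the difference is not given as a trait of stranded loci.

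All stranded unnamed loci together held 2.42 ± 0.25% of the summed FPKM of a library (SD, n = 6), between 2.06% and 2.68%. The 2 mitochondrial loci held 1.15 ± 0.28% of it and the remaining loci 1.27 ± 0.11%. Within the remaining loci, those classed by a pseudogene exon on either strand held 0.891 ± 0.078% of the summed FPKM. The unstranded unnamed loci held 1.08 ± 0.06%.

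By position, the loci fell into 7 classes on the GENCODE M21 annotation. Annotated exons were matched to the whole span of a locus, and the exons of its models were not used. An exon in the span need not be part of the assembled RNA. The largest was the class outside every annotated gene, with 211 loci (25.2%). Next came 184 loci (22.0%) with an exon of a pseudogene on the same strand, 174 (20.8%) with an exon of an lncRNA gene, 122 (14.6%) whose only exon overlap was on the opposite strand, and 99 (11.8%) with an exon of a protein-coding gene. A further 31 loci (3.70%) lay inside a gene without touching an exon, and 17 (2.03%) touched exons of other kinds. At 134 loci the span and that of a GENCODE gene on the same strand each covered at least 80% of the other, of which 46 were lincRNA genes, 31 processed pseudogenes and 18 protein-coding genes. The start of 92 loci lay within 50 bp of a RefSeq start on the same strand.

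Loci over pseudogene exons had the highest median level of the 7 classes. The median of the mean levels was 1.01 FPKM over pseudogene exons, 0.757 FPKM for opposite-strand loci, 0.352 FPKM over lncRNA exons and 0.229 FPKM over protein-coding exons, against 0.225 FPKM for loci outside genes. Within each library, the median of pseudogene loci exceeded that of loci outside genes by 1.47 ± 0.18 on the log2(FPKM + 0.1) scale (SD, n = 6), that of opposite-strand loci by 0.98 ± 0.29 and that of lncRNA loci by 0.44 ± 0.14, each in 6 of 6 libraries. Each of these 3 differences had the smallest p that the exact sign-flip permutation test allows, 0.031, and an adjusted p of 0.0625 over 6 classes, so none passed 0.05. Protein-coding loci differed by 0.14 ± 0.19 (higher in 4 of 6 libraries, adjusted exact permutation p = 0.234), loci inside a gene by −0.09 ± 0.21 (higher in 2 of 6, adjusted exact permutation p = 0.45) and the 17 others by −0.04 ± 0.46 (higher in 3 of 6, adjusted exact permutation p = 0.906).

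**Figure D1:**
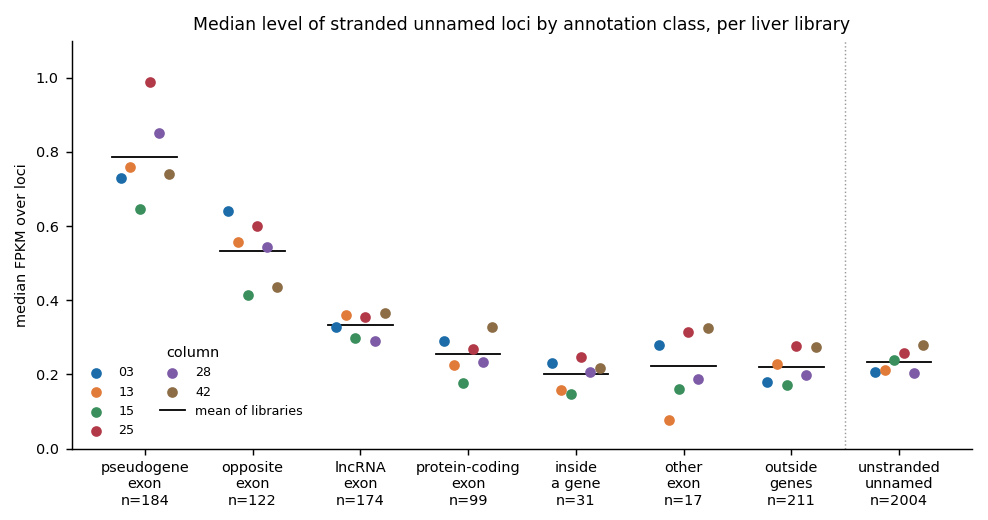
Median FPKM (linear axis) over the loci of each annotation class in each of the 6 liver libraries, with the class size under each name. Points are libraries and black lines their mean. Loci over pseudogene exons lie between 0.645 and 0.989 FPKM in every library, all above the 0.171 to 0.276 FPKM of loci outside genes. The unstranded unnamed loci are at the right.

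The most abundant loci were 2 that together cover nearly the whole mitochondrial genome, 1 on each strand. They overlap along nearly their whole length, and the labels' protocol names no step that marks strand. How reads were divided between the 2 is therefore uncertain, and so is the level on either strand. XLOC_025443 runs along chrM:9-15323 on the minus strand, the strand that encodes mt-Nd6, a subunit of respiratory complex I, and has 27 models, the most of any stranded unnamed locus. Its FPKM was 4396, 2873, 3668, 2950, 1521 and 2362 in libraries 03, 13, 15, 25, 28 and 42, a mean of 2962 ± 1000 (SD, n = 6). Library 03 was the highest and library 28 the lowest. Summed over 27 models this level depends on how models are combined, and the highest single model averaged 1279 FPKM. The plus-strand locus XLOC_025442 (chrM:9-16297), which contains mt-Nd5, another complex I subunit, had 468, 1225, 618, 476 and 847 FPKM in libraries 03, 13, 25, 28 and 42 and was listed at 0 in library 15. Unnamed loci on the same strand averaged 2070 FPKM in adipose and 3539 FPKM in hypothalamus for the minus strand (0 to 2970 FPKM and 1725 to 4831 FPKM), and 0.306 FPKM in adipose and 2.34 FPKM in hypothalamus for the plus strand (0 to 0.529 FPKM and 0.0114 to 6.58 FPKM). Levels of different tissues come from tables that were normalized separately and are set side by side without a test.

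Pseudogenes supplied most of the other abundant loci. A locus was counted as over a pseudogene exon only where its class came from that exon. Loci classed by a same-strand exon of another kind were left out, such as XLOC_024676, which also lies opposite the pseudogene Scp2-ps2. The counts and shares therefore leave out some loci over pseudogenes. As whole spans were classed, they can also hold loci whose RNA does not include the pseudogene exon. Among the 50 loci with the highest mean level, 40 counted as over a pseudogene exon on either strand and 44 had 1 model. In all, 250 loci were counted so, 184 on the strand of the pseudogene and 66 on the opposite strand. For 183 of them the pseudogene matched a coding transcript of GENCODE M21 at 95% identity or more over at least 80% of its length, with a median identity of 99.0% and with 21 loci identical to the coding transcript over the alignment. These 183 loci lay over 160 pseudogenes of 139 coding genes. Reads from copies this alike can be split between copies by an aligner, so the levels of both members of each such pair are uncertain.

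The loci over copies of coding genes read mostly below the coding genes. Their median was 2.36 FPKM, against 22.7 FPKM for the 139 coding genes. There were 154 loci below their coding gene and 29 above it, and where the coding gene had at least 1 FPKM the median locus had 10.5% of its level. Of the coding genes, 10 were listed at 0 in all libraries. Eef1a1 was one of them, and its pseudogene Gm48338 (XLOC_006167) had 45.5, 151, 188, 79.4, 74.4 and 11.2 FPKM in libraries 03, 13, 15, 25, 28 and 42. XLOC_013540, opposite another Eef1a1 pseudogene (Gm13456), had 172 and 112 FPKM in libraries 03 and 13 and was listed at 0 in the other 4.

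**Figure D2:**
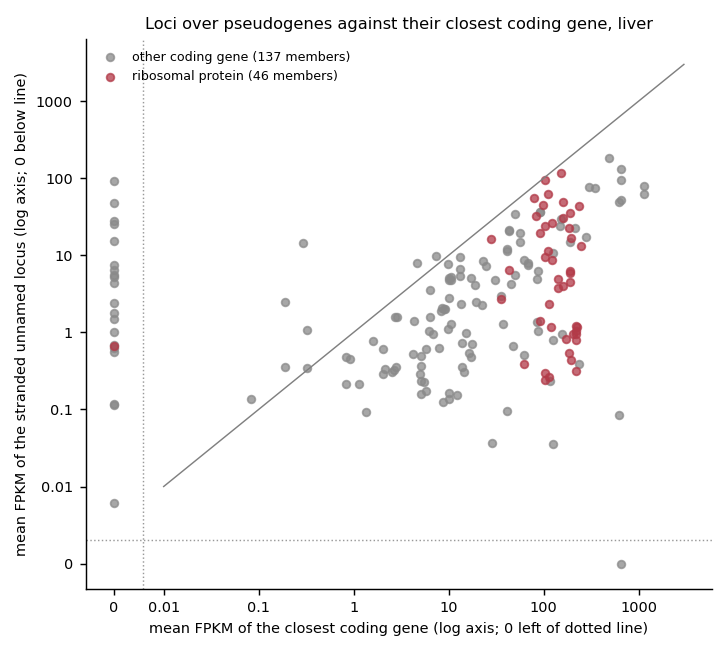
Mean FPKM over 6 liver libraries of each of the 183 loci over a pseudogene (vertical, log axis) against its closest coding gene (horizontal, log axis), with ribosomal protein copies in red. The line marks equal levels, and values of 0 are drawn beyond the dotted lines. Most points (154) lie below the line, and a column of points at the left belongs to coding genes listed at 0.

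Copies of ribosomal protein genes, whose messages are among the most abundant in any cell, were counted among these loci. There were 46 loci over copies of 34 ribosomal protein genes, 22 on the strand of the pseudogene and 24 opposite it. Their mean levels lay between 0.242 and 117 FPKM with a median of 5.39 FPKM, against a median of 147 FPKM for the coding genes, and 45 of 46 were below their coding gene. Their summed level was 729 to 899 FPKM per library.

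XLOC_019789 (chr6:66875260-66875762, minus strand), over Gm9794, was the highest of them. It had 112, 110, 131, 119, 113 and 118 FPKM in libraries 03, 13, 15, 25, 28 and 42, a mean of 117 ± 7 (SD, n = 6), against 163, 91.9, 115, 190, 177 and 172 FPKM for Rpl23. The copy was lower than Rpl23 in libraries 03, 25, 28 and 42 and higher in libraries 13 and 15. The matching locus averaged 87.2 FPKM in adipose. XLOC_013622 over Rps6-ps4 had 93.7, 114, 101, 85.2, 89.0 and 87.4 FPKM, against 93.1, 133, 117, 90.5, 96.4 and 93.5 FPKM for Rps6, whose sequence it shares base for base. Both loci were highest in library 13. The locus averaged 89.0 FPKM in adipose (62.1 to 122 FPKM) and 62.2 FPKM in hypothalamus (0 to 77.5 FPKM).

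Copies of metabolic and stress genes were also among the abundant loci. XLOC_001724, over the Ass1 copy Gm5424, had 154, 173 and 145 FPKM in libraries 13, 25 and 28 and was listed at 0 in the other 3, while Ass1 itself had 538 to 1892 FPKM in every library. XLOC_018093, over the Gm15459 copy of Hspa8, the constitutive HSP70 chaperone, was chosen after its values were seen. It had 93.9, 98.2 and 98.9 FPKM in libraries 03, 13 and 15 and 52.3, 57.9 and 51.8 FPKM in libraries 25, 28 and 42, and Hspa8 had 438, 446 and 451 FPKM and 240, 261 and 238 FPKM in the same libraries. For both, the first 3 libraries lay above the other 3. Over the glutathione transferase pseudogene Gstm2-ps1, XLOC_018521, also chosen after its values were seen, had 30.7, 29.96, 39.97, 68.8, 45.5 and 80.5 FPKM, against 373, 417, 356, 892, 935 and 760 FPKM for the named locus that merges Gstm1 and Gstm3. Another named locus, which merges Gstm1 and Gstm4, had 0 to 1.92 FPKM. XLOC_018521 and the first of these named loci were higher in libraries 25, 28 and 42 than in the other 3. How many loci split into these same libraries was not counted, and no column can be tied to a treatment. The split is therefore not read as a pattern of the loci or of treatment.

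Levels were also compared across libraries, between a locus and the coding gene it copies and between a locus and its named neighbour. For 67 pairs of the first kind with at least 1 FPKM and no 0 on either side, the median Pearson's r over the 6 libraries was 0.55, and r was positive in 59 pairs. By the exact permutation test, 17 pairs (25.4%) had an unadjusted p under 0.05, and none passed after Benjamini-Hochberg adjustment over all 2688 pairs tested (0% called). At r = 0.999 (XLOC_018093 and Hspa8) the exact permutation p was 0.00139, a floor set by 6 libraries, and the adjusted p 0.249. Adjustment over so many pairs could therefore hardly call any pair of either kind, and its 0% shows nothing about them. The second kind was 43 loci with a named locus within 10 kb, both with a mean of at least 1 FPKM and with values of 0 allowed. Their median r was 0.02, 4 pairs (9.3%) had an unadjusted p under 0.05 and none passed after adjustment (0% called). The same count over 2578 pairs of neighbouring named loci gave 255 (9.89%) and a median r of 0.18, with none past adjustment. With only loci above 0 in every library, 2 of 35 had an unadjusted p under 0.05 and none passed adjustment. Among the 4 was XLOC_022391, which lies in the Stx4a gene on the opposite strand (r = 0.90, Spearman's rho = 0.89, exact permutation p = 0.0278 and 0.0333, adjusted p for r = 0.415). Leaving out the 2 libraries farthest from the median of the named gene gave r = 0.78 there. The 67 pairs were chosen with these values in view, share coding genes among themselves and may share reads within a pair, and the part of such reads in their r was not tested.

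Several abundant loci occurred as mirror images, with a locus on each strand over the same bases. There were 13 such pairs whose starts and ends agreed within 10 bp, which makes 26 loci, 19 of them classed by a pseudogene exon. Without that limit on the ends, 94 of the 838 loci overlapped a stranded unnamed locus on the opposite strand. The 13 pairs gave 78 library values. In 33 the 2 strands had the same FPKM within 1%, in 27 only 1 strand was above 0, in 17 both were above 0 and unequal, and in 1 both were 0. In 11 of the 13 pairs at least 1 library had a strand at 0.

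At Scp2-ps2, a copy of the sterol carrier protein gene Scp2, the minus-strand locus XLOC_025328 had 241, 223, 255, 165, 0 and 206 FPKM in libraries 03, 13, 15, 25, 28 and 42. The plus-strand locus XLOC_024676, which overlaps the lncRNA gene Gm47162, had 0, 224, 255, 165, 160 and 206 FPKM. The 2 strands agreed within 1% wherever both were above 0, and the 0 fell on the minus strand in library 28 and on the plus strand in library 03. Scp2 had 361 to 650 FPKM.

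At Tpt1-ps3, a copy of the translationally controlled tumour protein gene Tpt1 with 0 differences over 519 bases, the plus-strand locus XLOC_019310 had 129, 156, 124, 131, 130 and 126 FPKM. The minus-strand locus XLOC_019944, on the strand of the pseudogene, had the same values in libraries 03, 13, 25 and 42, 20.8 FPKM in library 15 and 0 in library 28. Unlike these, the pair at Gm5096 (XLOC_011330 and XLOC_011064) was unequal in every library. The minus strand had 394, 559, 296, 199, 298 and 235 FPKM and the plus strand, that of the gene, 71.1, 96.2, 53.2, 28.1, 27.96 and 5.28 FPKM. At Gm5424 the strand opposite to the pseudogene (XLOC_002316) had 369 FPKM in library 42, 7.63 FPKM in library 03 and under 1 FPKM or 0 elsewhere, so the strands took turns across libraries. The labels' protocol names no step that marks strand, and without one the reads of the 2 strands cannot be told apart.

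**Figure D3:**
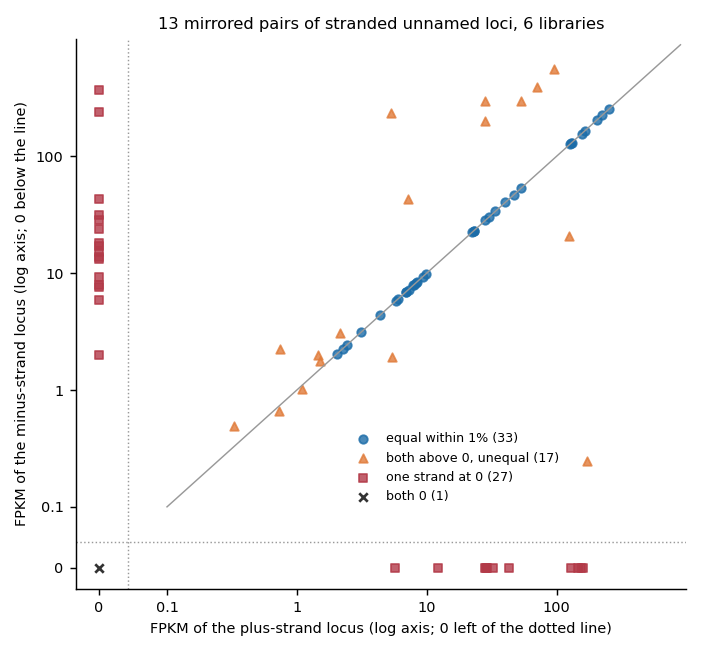
FPKM of the minus-strand locus (vertical, log axis) against the plus-strand locus (horizontal, log axis) for 13 mirrored pairs in 6 liver libraries, 78 points. Circles on the diagonal are the 33 values equal within 1%. The 27 squares along the edges have 1 strand at 0, drawn beyond the dotted lines.

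Opposite-strand loci included steady and uneven ones. Of the 122, 62 were above 0 in all 6 libraries. XLOC_008750, opposite Rps10-ps2, chosen after its values were seen, was among these, with 43.8 to 81.5 FPKM. XLOC_012341 (chr2:22589159-22590237, plus strand), opposite the pseudogene Gm13340, had 325, 287 and 684 FPKM in libraries 15, 25 and 28 and was listed at 0 in the other 3. XLOC_012340 lies beside it and is classed with the protein-coding loci, because its span of 33367 bp covers exons of the myosin gene Myo3a. The span also lies opposite the pseudogene Gm13341. XLOC_012340 had 392 FPKM in library 25 and was listed at 0 in the other 5. A hypothalamus locus on the same strand ran from 0 to 26.8 FPKM over its 6 columns, a mean of 4.47 FPKM that rests on 1 column. Of the 225 loci with a mean of at least 1 FPKM, 60 had at least 1 library at 0, as did 319 of 8394 named loci of that level. Among loci of that level without a 0, the SD between libraries had a median of 0.31 on the log2(FPKM + 0.1) scale (165 loci), against 0.26 for 8070 named loci.

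**Figure D4:**
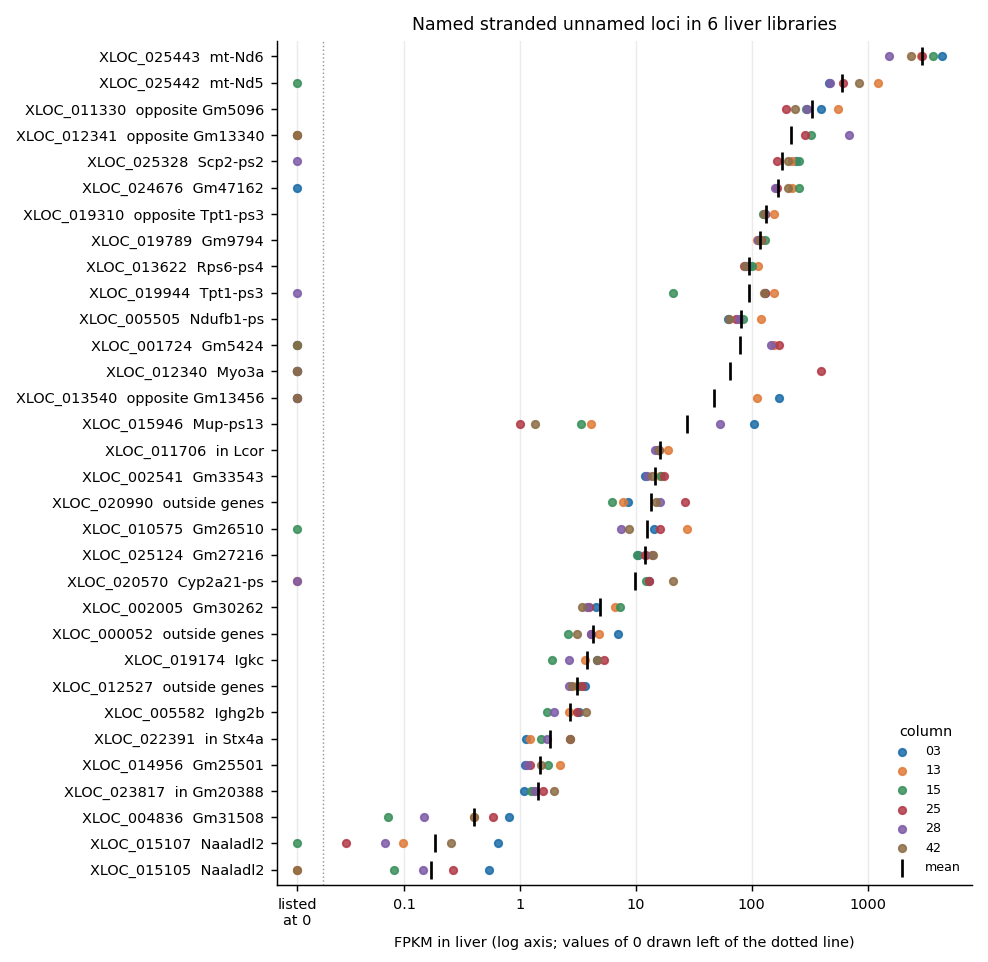
FPKM (log axis) of the 32 loci described by rule, in each of the 6 liver libraries, ordered by their mean, which a black bar marks. Values of 0 are drawn left of the dotted line. Loci such as XLOC_019789 and XLOC_011706 keep their 6 points close together, whereas XLOC_012341, XLOC_012340 and XLOC_013540 split into high values and 0.

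Loci over lncRNA genes had a lower median than those over pseudogenes, as given above. The highest after the mirrored XLOC_024676 was XLOC_005505, whose start and end are shown above. It had 62.1, 120, 84.0, 72.5, 77.2 and 63.9 FPKM in libraries 03, 13, 15, 25, 28 and 42, a mean of 79.9 ± 21.3 (SD, n = 6), with library 13 the highest. Its counterparts averaged 70.4 FPKM in adipose and 62.3 FPKM in hypothalamus. XLOC_010575, over Gm26510, had 14.4, 27.7, 16.2, 7.39 and 8.70 FPKM and was listed at 0 in library 15.

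Of the lncRNA loci, XLOC_025124 over Gm27216 had 10.4, 12.3, 10.3, 11.9, 13.6 and 14.0 FPKM, a mean of 12.1 ± 1.6 (SD, n = 6), and overlapped no unnamed locus of adipose or hypothalamus. XLOC_002005, over Gm30262 on chromosome 10, had 16 models and 4.54, 6.55, 7.30, 3.92, 3.79 and 3.43 FPKM, and it too had no unnamed counterpart. Its level rests on the sum of models, since the highest single model averaged 1.14 FPKM. XLOC_002541, over Gm33543, which is protein-coding in GENCODE M21 and an lncRNA gene in RefSeq, had 17 models and 14.7 ± 2.3 FPKM (SD, n = 6; 12.1 to 17.6), while its highest single model averaged 3.16 FPKM. Its counterpart in adipose was at 0.597 FPKM in 1 column and at 0 in the others.

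Loci beside the families of liver enzymes and secreted proteins included pseudogenes of the same families. Gene families were looked up by the prefix of the nearest named locus. Slc, the solute carriers, had 14 loci, Mup 6, Cyp 5, Ugt 2, Serpina, Sult and Apo 1 each, and Gst none. Predicted genes (Gm) were nearest to 44 loci and clone names ending in Rik to 76. The same counts were not made over all liver loci, so nearness to a family is not given as a trait of these loci. XLOC_015946, over Mup-ps13 in the cluster of major urinary protein genes, which liver secretes, had 104, 4.08, 3.34, 1.01, 53.2 and 1.36 FPKM in libraries 03, 13, 15, 25, 28 and 42. Libraries 03 and 28 stood far above the other 4. The other 5 Mup loci averaged 0.0521 to 0.249 FPKM. XLOC_020570, over the cytochrome P450 pseudogene Cyp2a21-ps, had 12.9, 12.2, 12.9 and 20.9 FPKM in libraries 03, 15, 25 and 42 and was listed at 0 in libraries 13 and 28. XLOC_015946 and XLOC_020570 had no unnamed counterpart in the other tissues. Mup and Cyp genes lie in clusters of related copies. Over the alignment, Mup-ps13 was 89.7% identical to Mup6 and Cyp2a21-ps 96.6% identical to Cyp2a5. Whether reads were shared between such copies was not tested, so these levels are uncertain.

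Loci outside every annotated gene were the largest class and had few abundant members. Only 18 of 211 reached a mean of 1 FPKM. There were 34 within 1 kb of the start of a gene on the other strand, pointing away from it, 22 within 5 kb downstream of a gene on the same strand, and 155 in neither place. XLOC_020990 (chr7:102645159-102646098, plus strand), downstream of the olfactory receptor gene Olfr554, had 8.52, 7.75, 6.25, 26.8, 16.3 and 14.9 FPKM. Libraries 25, 28 and 42 lay above the other 3, a split that was not counted over all loci. XLOC_000052 (chr1:29737202-29737570, plus strand) had 2.59 to 6.998 FPKM, and XLOC_012527 (chr2:43195683-43196532, plus strand) had 3.62, 3.08, 3.25, 3.40, 2.65 and 2.82 FPKM, a mean of 3.14 ± 0.36 (SD, n = 6), or 1.93 FPKM in the gene table.

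Inside genes, the leading locus was XLOC_011706, in an intron of Lcor, a ligand-dependent nuclear receptor corepressor, on the strand of RefSeq Morf4l1b, a protein-coding gene under which GENCODE M21 had no exon. It had 15.5, 18.9, 15.4, 15.8, 14.5 and 16.0 FPKM, a mean of 16.0 ± 1.5 (SD, n = 6), against 1.69 to 2.69 FPKM for Lcor. XLOC_022391, in Stx4a, which encodes a syntaxin of vesicle fusion, had 1.12 to 2.68 FPKM, and XLOC_023817, in Gm20388, had 1.09 to 1.98 FPKM, with 0.540 FPKM on average for its highest model.

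Antigen receptor genes of B and T cells supplied 14 of the 17 loci with other exons, 10 of immunoglobulin genes and 4 of T cell receptor genes. XLOC_019174 over Igkc, the kappa light chain constant region, had 4.65, 3.66, 1.88, 5.26, 2.66 and 4.62 FPKM. XLOC_005582, 171185 bp across the heavy chain locus with Ighg2b, had 11 models and 1.70 to 3.73 FPKM, and its tissue counterparts averaged 6.13 FPKM in adipose and 1.86 FPKM in hypothalamus. Both levels depend on summing models, since the highest single model averaged 1.66 FPKM for XLOC_019174 and 0.665 FPKM for XLOC_005582. Fewer cells of a type and less RNA per cell cannot be told apart in whole tissue. The others averaged 0.0524 to 0.481 FPKM.

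The 3 longest loci had means of 0.172 to 0.400 FPKM. XLOC_015107 (448502 bp) and XLOC_015105 (410268 bp) each had 1 model with a span that covers exon bases of Naaladl2 on chromosome 3. They had 0 to 0.647 FPKM and 0 to 0.543 FPKM. XLOC_004836 (290636 bp), over Gm31508 on chromosome 12, had 0.0721 to 0.799 FPKM. At the other end, 238 of the 838 loci spanned less than 1000 bp.

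A minority of the loci had an unnamed counterpart with the same strand in another tissue. There were 247 (29.5%, 95% Wilson interval 26.5 to 32.6) that overlapped a stranded unnamed locus of adipose on the same strand, 219 (26.1%) one of hypothalamus and 140 (16.7%) both. The adipose table held 1488 stranded unnamed loci and the hypothalamus one had 1360. Counting unnamed loci of any strand, 358 (42.7%) had none in either tissue. That share was 71.6% (65.1 to 77.2) of the loci outside genes, 47.7% (40.4 to 55.1) of lncRNA loci, 21.2% (15.9 to 27.7) of pseudogene loci and 20.5% (14.3 to 28.5) of opposite-strand loci. A locus can also be missing because it has a name there, and intervals cover counting error only. The same shares were not counted over all liver loci or over the unstranded unnamed loci. They are therefore not given as traits of these loci or of liver.

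Poly(A) signals were looked for at the ends of the loci. The last 50 bases could be read from annotated transcripts for 233 of 838 loci. AATAAA or ATTAAA occurred there on the assigned strand at 32 of 233 (13.7%, 95% Wilson interval 9.90 to 18.7), on the opposite strand at 9 of 233 (3.86%) and at the 5′ end at 5 of 304 (1.64%). The 3′ share was 64.2% (63.6 to 64.8) over 27478 named models. For unstranded unnamed loci, whose 3′ end is unknown, both ends were read, and the share was 4.04% (3.15 to 5.17) over 1485 ends. That share mixes 3′ and 5′ ends and is not like the others. By class, the 3′ share of stranded loci was 12 of 62 over lncRNA exons, 11 of 55 over protein-coding exons and 5 of 14 over other exons. It was 3 of 49 over pseudogene exons and 1 of 42 among opposite-strand loci. Among the 53 readable loci without a same-strand exon it was 1. Windows come from annotated exons only, so the readable loci are not a sample of all 838, and a missing match says only that these letters are not in the window.

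**Figure D5:**
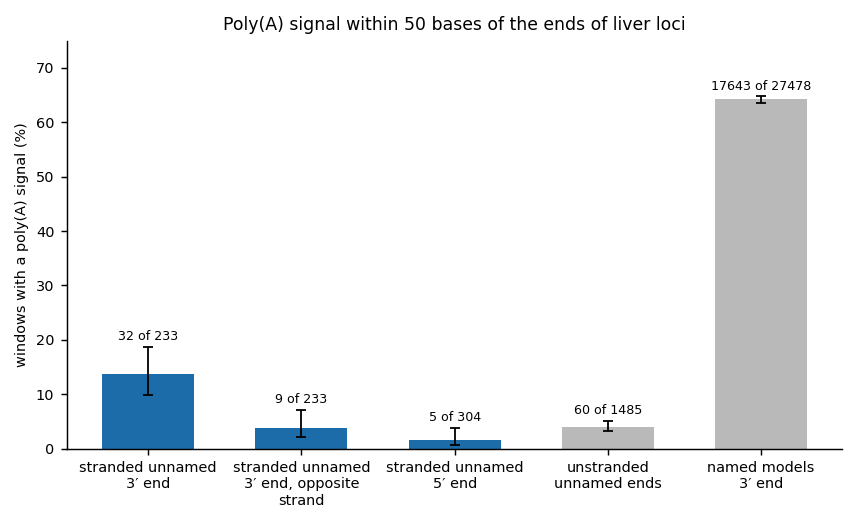
Percent of readable 50-base windows (linear axis) with AATAAA or ATTAAA, with 95% Wilson intervals and counts. Blue bars are stranded unnamed loci at the 3′ end, on the opposite strand there and at the 5′ end. Grey bars are unstranded unnamed loci, read at both ends, and named liver models at the 3′ end. The 3′ end bar at 13.7% stands above the other blue bars and far below the 64.2% of named models.

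At their starts, 132 loci had a window of 250 bases before to 50 bases after the start that could be read. Their median GC content was 55.7% and their median ratio of observed to expected CpG was 0.563, against 52.7% and 0.384 for 32851 RefSeq promoters. A CpG ratio of at least 0.6 was found in 48.5% of them and in 35.8% of RefSeq promoters. TATAAA in the 50 bases before the start, read on the strand of the locus only, occurred in 0 of 132 windows and in 863 RefSeq promoters (2.63%). Most readable windows lie in or beside annotated genes, and the groups were not tested against each other.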

How the data were processed

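RNA of 18 samples from 3 tissues was poly-A selected and sequenced on an Illumina HiSeq instrument, per the labels' protocols. HISAT 0.1.6, StringTie 1.0.4 and the build mm10 are named in the submitters' processing notes. The merging tool, the annotation and the strandedness are not given in the sources used here. The authors deposited FPKM per transcript model and per gene, in 1 table of each kind per tissue. Depth is unknown, so no counting interval could be set on a level, and Wilson intervals on shares cover counting error only.

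FPKM was summed over the models of a locus. There were 9 cells of the liver transcript table that held no number, none of them in a stranded unnamed locus. The 6 liver columns were treated as libraries of 1 group. The whole span of each locus was classed against GENCODE M21 exons, and starts and promoters against RefSeq (GRCm38.p6). Sequences came from GENCODE transcripts and RefSeq promoters, in which 115447537 bases read from more than 1 source all agreed. Pseudogenes were aligned to coding transcripts with BLAST 2.17.0. Tests on log2(FPKM + 0.1) were exact sign-flip or pairing permutation tests, two-sided, over libraries, with Benjamini-Hochberg adjustment (Python 3.11.15, SciPy 1.17.1). They were tested on simulated data, with fewer pairs than the 2688 adjusted together here. That simulation does not show what the adjustment can call over 2688 pairs.

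Loci described by rule were the 10 with the highest mean, the 3 highest of each class, the 3 longest, the 3 with most models, the 5 with the largest SD between libraries among those of at least 1 FPKM, and the 3 highest without an unnamed counterpart elsewhere. The loci, lists and rules were chosen with earlier results of these data known. BPA was not compared with vehicle, because the column headings match no label.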

Additional observations from a re-analysis of the deposited data

Results flagged for a closer look

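In each of the 32 loci described by rule, the highest and the lowest of the 6 liver libraries were set against the others by Dixon's criterion for 6 values (0.625). It marked 4 loci, and 15 further series of 6 values were also tested. Chance marks about 1 group in 20 where values are independent and normally distributed, which FPKM with values of 0 need not be. XLOC_012340 was among the loci chosen for a large SD between libraries, so its mark partly follows from that choice. The number marked is therefore not set against that rate.

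XLOC_025328, over Scp2-ps2, was at 0 FPKM in library 28, against 165 to 255 FPKM in the other 5 libraries. XLOC_019310, opposite Tpt1-ps3, was at 156 FPKM in library 13, against 124 to 131 FPKM in the others. XLOC_012340, over Myo3a, was at 392 FPKM in library 25 and listed at 0 in the others. XLOC_011706, inside Lcor, was at 18.9 FPKM in library 13, against 14.5 to 16.0 FPKM in the others. The first 2 belong to mirrored pairs.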

How the results depend on the processing

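The higher level of stranded over unstranded unnamed loci kept its direction under every setting run. No setting removed the selection that comes with being given a strand. The difference was 0.116 (exact permutation p = 0.1875) over loci with 1 model. Without the stranded loci classed by a pseudogene exon it was 0.162 (exact permutation p = 0.0625). Among classes against loci outside genes, 3 settings took the adjusted exact permutation p to 0.046875. With a mean of at least 0.1 FPKM the differences were 1.41 for pseudogene, 0.814 for opposite-strand, 0.268 for lncRNA and −0.317 for loci inside a gene. With the highest model of a locus they were 1.36, 0.841 and 0.338 for the first 3 and 0.139 for protein-coding loci. With the mean over loci they were 1.81, 1.69, 0.533 and 0.560. Signs turned at values near 0. Loci with other exons were at 0.000266 with a pseudocount of 1, 0.163 with the filter and 0.0259 with the mean over loci, which also gave 0.0362 for loci inside a gene. The cause was not tested. Requiring 100 bases of exon overlap put 5.85% of loci inside a gene. Overlap with adipose was 25.4% when at least 50% of a locus had to be covered and 50.5% with any unnamed locus, and with hypothalamus 43.6% with any unnamed locus. The share of summed FPKM was 2.11% from the gene table, 1.28% without mitochondrial and 2.002% without mirrored loci. The poly(A) signal share was 1.89% without same-strand exons. Settings that left out mirrored, mitochondrial or pseudogene loci, or loci at 0, were chosen after seeing the data.

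No paired analysis was possible because no liver column can be tied to a replicate number or a treatment in the labels. The 6 liver heading numbers also head the hypothalamus columns and 4 of them adipose columns, but tissues were normalized separately and not tested against each other. Depth is unknown and limits what a low or 0 FPKM can show. Near-identical copies and overlapping strands limit the levels of pseudogene loci, mirrored loci, the 2 mitochondrial loci and other loci that overlap on opposite strands.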
